A study of Mus musculus with 21 samples.

Results

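Spinal cord of 4 knockout mice (cKO; Cnp-Cre with Tardbp-fl/fl) was set against spinal cord of 4 heterozygous mice (cHET; Cnp-Cre with Tardbp-fl/+) at postnatal day 21 (P21), to ask how gene expression differs when the second copy of Tardbp is also deleted. These 8 of the series' 21 RNA-seq libraries were chosen by their labelled age and genotype, and 17989 of the 25127 genes in the table were described, namely those that reached a value of 5 in at least 4 P21 libraries. The mice were C57BL/6 and 21 days old, 1 mouse to a library by the labels, and each group held 2 mice labelled female (libraries 1 and 4 of each group) and 2 labelled male (libraries 2 and 3). Another 4 libraries of the same age came from control mice with Tardbp-fl/fl and no Cre. They counted in the filter, the estimate of spread, the principal components and a ranking by mean value, not in the change itself. Both groups compared carry Cnp-Cre, in which Cre stands in the Cnp gene and is active in cells that make myelin, so Cre itself does not separate them. RNA came from the whole cord, in which other cell types keep their Tardbp alleles.

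Tardbp encodes TDP-43, a nuclear RNA-binding protein that controls splicing and stability of many transcripts and that aggregates in amyotrophic lateral sclerosis and frontotemporal dementia. Oligodendrocytes wrap axons in myelin, a membrane rich in cholesterol and galactolipids that they largely make themselves, and the cord, with its long tracts, is rich in them. Microglia, the resident phagocytes, take up debris and digest it in lysosomes, and astrocytes respond to injury with more of the intermediate filament Gfap.

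The deposited values are the authors' normalized reads per base of each gene, so levels can be compared between genes as well as between libraries. Unless stated otherwise, the text gives these values by library in the order 1 to 4, and a change is the difference of log2(value + 0.5), cKO minus cHET, with its standard error (SE). The number of reads behind a value is unknown. Genes of the mitochondrial genome held 6.61% to 8.12% of the summed value of tested genes in cKO libraries and 6.41% to 7.53% in cHET libraries. Log2 values correlated across genes at 0.969 to 0.977 between cKO libraries, 0.971 to 0.976 between cHET libraries and 0.953 to 0.963 between the groups. The first principal component (31.0% of the variance over the 12 P21 libraries) set the 4 cKO libraries apart from the rest.

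Some libraries stood apart in other ways. The second component (11.0%) was carried by cKO 4 and cHET 4, in which Glra1, the adult glycine receptor subunit of the cord, was at 684 and 1359, against 3081 to 3268 in the other cKO and 4249 to 5511 in the other cHET libraries. The third component (7.88%) was carried by cHET 1. That library held Slc17a7, a glutamate transporter of cortical neurons, at 4177, against 194 to 336 in the other cHET and 235, 219.9, 304 and 278 in the cKO libraries. Its label is spinal cord, and its level of Hoxb9, a gene of the trunk, was 3140, beside 3281 to 3816 in the other cHET libraries. Leaving out cHET 1 gave 3372 genes past the threshold, leaving out cKO 4 and cHET 4 gave 4110, and leaving out all 3 gave 3334, beside 4059 with every library. Ddx3y, a gene of the Y chromosome, was at 2401 to 2630 in the 4 libraries labelled male and at 23.6 to 123 in the 4 labelled female.

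Tardbp (ENSMUSG00000041459; GRCm38 chromosome 4, 148612382 to 148627019) was lower in cKO cord. Its values were 1731, 1880.5, 1753 and 1639 in cKO, against 2068, 2236, 2030.2 and 2231 in cHET. All 4 cKO values were lower than all 4 cHET values, a change of -0.29 ± 0.06 (SE, n = 4 each; limma adjusted p = 2.5e-03), and fits of only the females or only the males kept the direction but not the call (-0.35, adjusted p = 0.075, and -0.23, adjusted p = 0.062). The gene-level value does not resolve the floxed exon. Cnp (chromosome 11, 100574904 to 100591729), the myelin enzyme gene that carries Cre, was at 47387, 52006, 54278 and 57530.2 in cKO, against 46589, 46724, 44181 and 49396 in cHET. Those groups overlap, and the change of 0.17 ± 0.07 missed the threshold (adjusted p = 0.084). Cnp was called under quantile normalization (0.23, adjusted p = 6.1e-03), without cKO 1 (0.22, adjusted p = 0.024) and in the authors' deposited table (q = 0.039).

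Across the transcriptome, changes upward were larger and changes downward were in more abundant genes. In all, 4059 of 17989 tested genes passed an adjusted p of 0.05 (22.6%), of which 2266 rose (12.6%) and 1793 fell (9.97%), and the groups did not overlap for 22.6% of genes (cKO above cHET for 12.7%, below for 9.87%). Past 8-fold stood 120 genes that rose and 8 that fell, between 4-fold and 8-fold 208 and 19, and between 2-fold and 4-fold 502 and 86. Below 1.41-fold the order turned, with 823 risen and 1371 fallen. Genes were also ranked by mean value over the 12 P21 libraries, controls included, and cut into 4 equal classes. In the lowest class 364 rose and 70 fell, whereas in the highest (a mean of 1276 or more) 540 rose and 966 fell. Most of those libraries were not cKO, so this mean tends to rank risen genes lower and fallen genes higher than a mean of both groups would. The genes that fell together held 23.1% to 23.8% of all value in cKO and 29.4% to 30.5% in cHET libraries, and those that rose held 15.8% to 17.0% in cKO and 10.1% to 10.3% in cHET. For 3448 genes (19.2%) the 95% interval of the change lay within 1.2-fold either way. The 10 highest log2 changes among genes with a mean of at least 200 in one group were those of Ccn5, Lilr4b, Lilrb4a, Gpnmb, Ly9, Cst7, Ifi207, Slc28a2, Siglec1 and Lyz2, from 6.80 to 4.97, and apart from Ccn5 most of them are known from myeloid cells. The 10 lowest were those of Nkx2-9, Klk6, Dnah8, Cdkn1c, Tmprss5, Itgb4, Tex52, Rab37, Mob3b and Serpinb1a, from -4.50 to -1.76. In absolute value the gains were largest for Gfap, Apoe, Ctsd, Ptgds, Aqp4, Mt1, Ctsb, Psap, Vim and Serpina3n, genes of astrocytes, lipid transport and the lysosome. Among the largest losses were those of Mbp, Scd2, Ugt8a, Hmgcs1, Tubb4a, Mal, Rtn3 and Aatk, most of them genes of myelin or of lipid synthesis. Apoe alone, the main lipid carrier of the cord, was at 155991, 173382, 161703 and 147844 in cKO, against 47061, 44554, 48548 and 54666 in cHET. The share of calls upward was 55.8%, and quantile normalization, which moved the median change by -0.06, gave 2032 up and 2314 down (46.8% upward).

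**Figure D1:**
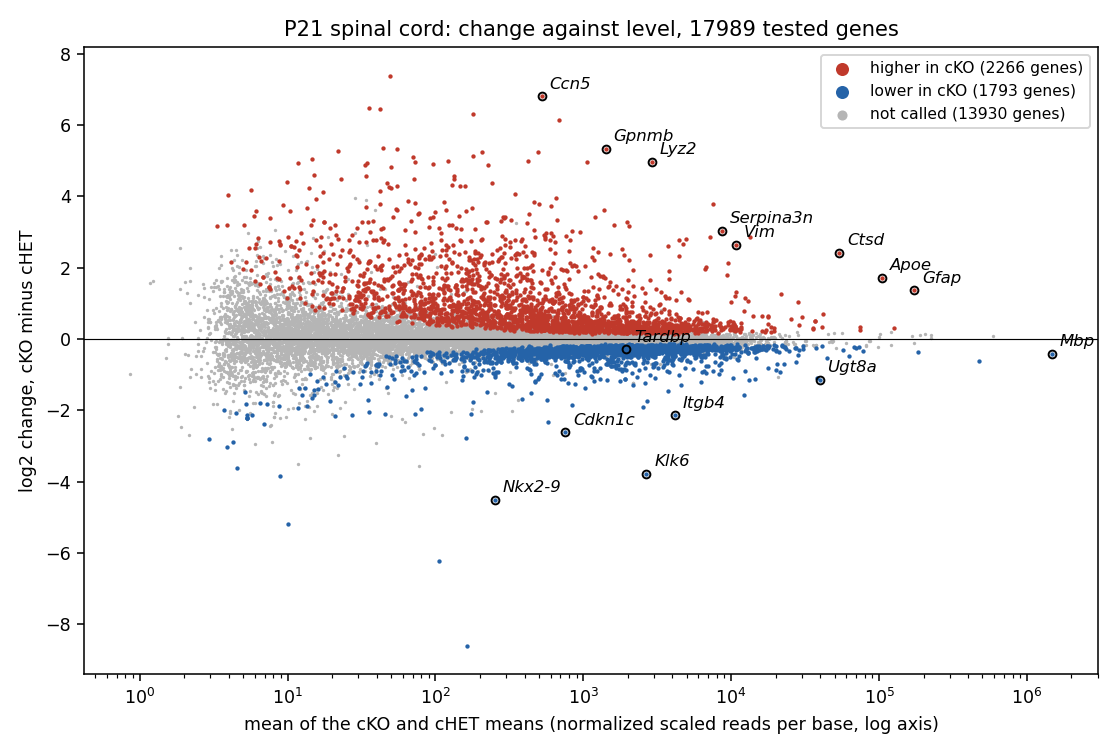
Change of each of the 17989 tested genes (y axis, log2 of cKO over cHET on value + 0.5) against its mean value over the 8 libraries (x axis, log scale); coloured points are the 2266 genes that rose and the 1793 that fell, grey points the 13930 that did not pass. Most points beyond 2 on the y axis lie above 0 and at low to middle values, while fallen genes gather at high values close to 0.

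Myelin genes fell by very unequal amounts. Mbp, which encodes a main structural protein of central myelin, had the largest loss in absolute value. Ugt8a, the enzyme that makes galactosylceramide, fell by more in proportion, and Klk6, a secreted protease of mature oligodendrocytes, fell most among them. Mbp was at 1186340.0, 1237790.0, 1184980.0 and 1403140.0 in cKO, against 1716400.0, 1724780.0, 1535360.0 and 1739640.0 in cHET. The highest cKO value was under the lowest cHET value, with a change of -0.42 ± 0.10 (adjusted p = 5.0e-03). Ugt8a was at 19954, 25665, 31372 and 21889.7 in cKO, against 57573, 55587, 49399 and 54976 in cHET, a change of -1.16 ± 0.11 (adjusted p = 2.3e-06). Klk6 was at 249.5, 457, 566 and 260.4 in cKO, against 4938, 5198, 5112 and 4562 in cHET. Its groups were far apart, and the log2 change corresponds to a level 13.7-fold lower in cKO (-3.78 ± 0.20, adjusted p = 7.5e-09). Mbp, the most abundant gene of every library, was held equal by quantile normalization by construction, and it also lost its call when genes of low value were kept (adjusted p = 0.16).

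Of 23 tested markers of the myelinating oligodendrocyte 16 fell and 3 rose, with a median change of -0.53, beside -0.01 over all tested genes. Gjb1, the gap junction protein connexin 32, fell by 1.45 ± 0.07, and Hapln2, a link protein of the nodes of Ranvier, by 1.21 ± 0.06 (adjusted p = 4.4e-09 and 4.4e-09). Ermn, which encodes the cytoskeletal protein ermin, was at 6272, 5827, 8119 and 6096 in cKO, against 13527, 14501, 13486 and 14194 in cHET (-1.09 ± 0.09, adjusted p = 4.2e-07). The risen members were Opalin, a transmembrane protein of myelinating cells, at 0.33, Cldn11, which forms tight junctions in myelin, at 0.24, and Myrf, the transcription factor that switches on myelin genes, at 0.20. The Cldn11 call was lost without cKO 3, cKO 4, cHET 1, cHET 2 or cHET 3 (adjusted p up to 0.098), and that of Myrf on leaving out any single library other than cKO 1 or cHET 1 (up to 0.099). Mobp and Mog, components of compact and outer myelin, were at -0.08 and -0.18 and did not pass. For comparison at similar abundance in cHET, Cldn11 averaged 79996 ± 8690.2 in cKO and 67437 ± 4222 in cHET, and Ugt8a 24720.3 ± 5029 in cKO and 54384 ± 3503 in cHET (SD, n = 4). In whole tissue, fewer cells of a type and less RNA per cell cannot be told apart.

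**Figure D2:**
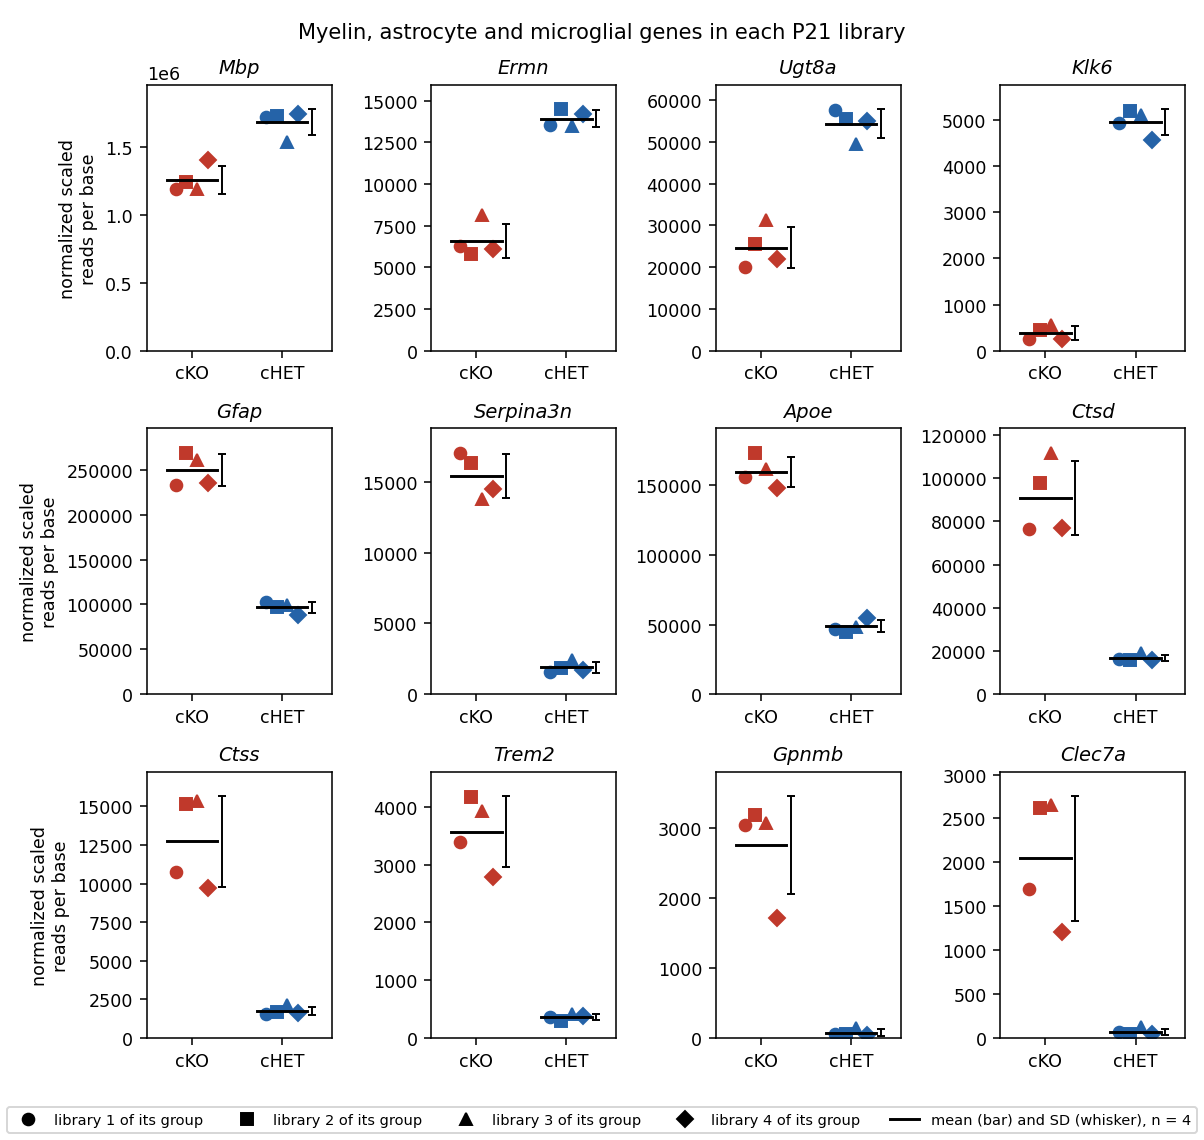
Deposited value (y axis, normalized scaled reads per base) of 12 genes in the 4 cKO and the 4 cHET libraries; symbols mark library 1 to 4 of each group, bars the mean and whiskers the SD. The cKO libraries of Mbp, Ermn, Ugt8a and Klk6 lie below all cHET libraries, and those of the glial genes Gfap, Serpina3n, Apoe, Ctsd, Ctss, Trem2, Gpnmb and Clec7a lie above them.

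Among enzymes of myelin sphingolipids and galactolipids 6 of 19 fell and 0 rose. Next to Ugt8a these were Fa2h, which hydroxylates the fatty acids of myelin lipids (-0.91), Elovl7, which lengthens fatty acids (-0.78), Gal3st1, which makes sulfatide (-0.52), Aspa, which breaks down N-acetylaspartate (-0.30), and the lipid transfer protein Gltp (-0.27). The Aspa call was lost without cKO 1, cKO 2 or cHET 2 (adjusted p up to 0.06). Elovl7 has other values in the authors' deposited table, where its change was -1.06. Galc and Arsa, the lysosomal enzymes that degrade these lipids, were at 0.18 and 0.17 and did not pass. Of 26 genes of the node, the paranode and gap junctions 8 fell and 6 rose. Cntn2, an adhesion molecule beside the paranode, fell by 0.92, while Nfasc, whose glial form anchors the paranodal loops, was higher in every cKO library (0.31 ± 0.07, adjusted p = 5.3e-03).

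The cytoskeleton and adhesion genes of myelin gave 11 fallen and 4 risen of 22. Itgb4, integrin beta 4, was at 1338, 1469.6, 1943 and 1491 in cKO, against 6982, 6917, 6649 and 6689 in cHET. Gsn, the actin-severing protein gelsolin, was at 5620.2, 6387, 6943 and 5595 in cKO, against 19062, 18091, 16406 and 19330.2 in cHET. Both were apart in all 8 libraries, at -2.14 ± 0.11 and -1.57 ± 0.08 (adjusted p = 6.9e-09 and 4.4e-09). Anln (anillin) fell by 1.71 and the tubulin Tubb4a by 0.46, whereas the tetraspanin Cd9 rose by 1.13; Cd9 is also made by microglia.

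Genes that distinguish kinds of mature oligodendrocyte mostly fell, with 17 of 24 down and 4 up (median -0.53). Serpinb1a, a protease inhibitor, fell by 1.76, Apod, a lipid-binding lipocalin, by 1.14, Trf (transferrin) by 0.71, and S100b by 0.82. The main exception was Ptgds, prostaglandin D synthase, which is also abundant in the meninges and was at 16756, 14729, 12475 and 51958 in cKO, against 3211, 2248, 2409.8 and 3251 in cHET. Every cKO library lay above every cHET library (2.87 ± 0.32, adjusted p = 1.5e-05), with cKO 4 above the other 3. Of 14 fibroblast markers, Ptgds among them, 4 rose and 3 fell (median 0.24), from -0.97 for the carboxylate transporter Slc13a3 to 3.61 for the proteoglycan Fmod. The falls numbered 1 without cKO 3, cHET 1 or cHET 4.

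Regulators of the lineage moved in both directions, mostly by small amounts. Of 27 transcription factors 9 rose and 3 fell, and Sox10, which marks the whole lineage, was at 0.06 ± 0.08 (95% interval -0.12 to 0.24). Olig1, also a lineage factor, rose by 0.41, and Zfp488, which promotes differentiation, by 0.82. Nkx2-9, a homeobox factor of the ventral neural tube, was at 16.0, 19.6, 24.3 and 23.7 in cKO, against 525, 406, 438 and 559.5 in cHET. It had the lowest log2 change of all named genes (-4.50 ± 0.17, adjusted p = 6.4e-10).

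Genes of earlier stages were higher. Of 14 precursor markers 8 rose and 0 fell (median 0.43), and of 14 markers of newly formed oligodendrocytes 9 rose and 2 fell (median 0.38). Both lists hold Gpr17, Neu4 and Bmp4, so these counts are not independent. Cspg4, the NG2 proteoglycan of precursors and pericytes, was at 3527, 4053, 3579 and 3595 in cKO, against 1521, 1453, 1541 and 1527 in cHET. The groups were tight and far apart (1.29 ± 0.05, adjusted p = 1.3e-09). Pdgfra, the growth factor receptor that defines precursors, was at 0.32 and did not pass (adjusted p = 0.091). Gpr17, a receptor of differentiating cells, was at 18837, 23706, 26342 and 17886 in cKO, against 15733, 12493, 12228 and 15411 in cHET, with its highest values in cKO 2 and cKO 3 (0.63 ± 0.12, adjusted p = 1.9e-03). Enpp6 and Bcas1, which mark cells about to myelinate, fell by 0.39 and 0.18, and the Bcas1 call was lost on leaving out any single library other than cKO 2 or cKO 3 (adjusted p up to 0.11).

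Genes that depend on SREBP factors, which turn on sterol and fatty acid synthesis, fell in 27 of 33 cases (median -0.66). Lss, which closes the sterol rings, was at 2736, 2558, 2455 and 2799 in cKO, against 7216, 7718, 5420.1 and 5574 in cHET. The groups did not overlap (-1.28 ± 0.14, adjusted p = 8.9e-06). Sqle, which oxidizes squalene in the step before, fell by 0.88 ± 0.07 (adjusted p = 5.4e-07). The member that rose was Srebf1, the fatty acid regulator itself, at 1180.0, 1463, 1155 and 1336 in cKO, against 930.4, 1101, 1127 and 843 in cHET (0.36 ± 0.11, adjusted p = 0.031). That call was lost without cKO 2, cKO 4, cHET 1 or cHET 4 (adjusted p up to 0.10). The desaturases Fads1 and Fads2 were at 0.17 and 0.08 and did not pass. Among genes of sterol export and breakdown 10 of 24 rose and 5 fell. The risen ones are known in phagocytes: Apoc2, an activator of lipoprotein lipase, was at 59.8, 91.2, 78.6 and 52.4 in cKO, against 0, 0, 2.47 and 0 in cHET, and Ch25h, which makes 25-hydroxycholesterol, rose by 4.57. Abca1, which loads cholesterol onto lipoproteins, rose by 1.65 and Lpl (lipoprotein lipase) by 3.18. In contrast Cyp46a1, the neuronal enzyme that clears brain cholesterol, fell by 0.29.

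Microglial and lysosomal genes gave many of the largest increases. Of 22 markers of disease-associated microglia, the state described around plaques and demyelinated lesions, 20 rose and 1 fell (median 3.18). Gpnmb, a glycoprotein of lipid-laden phagocytes, was at 3055, 3192, 3083 and 1720.3 in cKO, against 55.9, 49.6, 147 and 47.3 in cHET. Clec7a, a receptor for fungal glucans, was at 1699, 2617, 2648 and 1212 in cKO, against 70.1, 39.8, 122 and 43.6 in cHET. Trem2, the lipid receptor that drives this state, was at 3394, 4173, 3917 and 2792 in cKO, against 368, 291, 422 and 388 in cHET. For each gene every cKO library exceeded every cHET library, and the log2 changes correspond to 40.1-fold, 31.0-fold and 9.69-fold (adjusted p = 1.6e-08, 2.2e-07 and 1.8e-09). The member that fell was Fth1, the ferritin heavy chain (-0.33), which oligodendrocytes hold in quantity, and Ftl1, the light chain, rose (1.15). The Fth1 call was lost without cKO 1, cKO 2, cKO 3, cHET 1 or cHET 2 (adjusted p up to 0.089).

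Markers of microglia at rest split. Of 16 such markers 12 rose and 2 fell. Csf1r, the growth factor receptor that microglia need to survive, rose by 1.80 and the fractalkine receptor Cx3cr1 by 1.69, whereas the purinergic receptor P2ry12 was at 957, 1158, 1055 and 922 in cKO, against 1286, 1421, 1367 and 1403 in cHET. P2ry12 was lower in every cKO library (-0.43 ± 0.09, adjusted p = 3.7e-03), and so was the fructose transporter Slc2a5 (-0.70). Tmem119 and the transcription factor Sall1 were at -0.39 and -0.12 and did not pass (adjusted p = 0.13 and 0.098). The summed value of these 16 markers was 123078 to 140159 in cKO and 81150 to 86385 in cHET libraries. The most abundant members weigh most in that sum and P2ry12 little. Their mean log2 value, which weighs members equally, was 10.63 to 11.06 in cKO and 9.96 to 10.04 in cHET libraries.

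Most lysosomal enzymes rose, and fewer genes of the lysosome's membrane and pump were called. Of 30 hydrolases 23 rose and 1 fell (median 0.79), while of 25 membrane and proton pump genes 7 rose and 2 fell (median 0.06). Ctsd, the aspartic protease cathepsin D, was at 76379.5, 97744, 111819 and 77059 in cKO, against 16319.8, 16070.4, 18909.7 and 15900.3 in cHET. Ctss, a cathepsin of antigen-presenting cells, was at 10734, 15137, 15319.6 and 9693 in cKO, against 1577, 1657, 2152 and 1594 in cHET. Both were higher in every cKO library (2.42 ± 0.10 and 2.85 ± 0.14, adjusted p = 1.7e-09 and 4.4e-09). The hydrolase that fell was Ctsk (-0.63), and Gaa, Smpd1 and Ppt1, enzymes most cell types use, were at -0.05, -0.02 and -0.00 and did not pass. In the membrane list the risen genes were mostly myeloid, such as Cd68 (3.42) and Laptm5 (2.35), and the osteoclast-type pump subunit Atp6v0d2 was at 112, 93.8, 102 and 27.1 in cKO, against 1.01, 0, 0.878 and 0 in cHET; Lamp1, the general membrane protein, was at 0.10. Of 22 autophagy and TFEB family genes 3 rose and 1 fell. Grn, the lysosomal protein progranulin, rose by 2.34 ± 0.09, Tfeb itself was at -0.24 and Sqstm1 (p62) at 0.01, neither past the threshold.

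Promoters of 4 risen genes are shown because each holds a motif bound by known transcription factors of myeloid, interferon or lysosomal genes. The 300 bases run from 250 before to 50 after the RefSeq gene start on GRCm38.p6, 5′ to 3′ on the strand of the gene, and capitals mark the motif. GAGGAAGT is bound by Spi1 (PU.1), the master factor of myeloid cells, GAAANNGAAA by interferon regulatory factors, and TCACGTGA is the palindrome bound by the TFEB family of lysosomal regulators.
Ctss, chr3:95526536-95526835, plus strand: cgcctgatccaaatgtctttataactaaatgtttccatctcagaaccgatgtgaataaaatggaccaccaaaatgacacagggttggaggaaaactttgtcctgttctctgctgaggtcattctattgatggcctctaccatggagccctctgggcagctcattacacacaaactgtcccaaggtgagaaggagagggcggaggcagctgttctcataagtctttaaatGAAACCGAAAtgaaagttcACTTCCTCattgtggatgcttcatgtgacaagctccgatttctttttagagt
C1qc, chr4:136892865-136893164, minus strand: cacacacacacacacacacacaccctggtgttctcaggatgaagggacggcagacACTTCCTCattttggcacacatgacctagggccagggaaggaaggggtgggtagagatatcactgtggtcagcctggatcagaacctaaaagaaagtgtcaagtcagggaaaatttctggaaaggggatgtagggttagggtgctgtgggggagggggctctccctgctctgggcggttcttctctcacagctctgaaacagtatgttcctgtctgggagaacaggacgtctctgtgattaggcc
B2m, chr2:122147437-122147736, plus strand: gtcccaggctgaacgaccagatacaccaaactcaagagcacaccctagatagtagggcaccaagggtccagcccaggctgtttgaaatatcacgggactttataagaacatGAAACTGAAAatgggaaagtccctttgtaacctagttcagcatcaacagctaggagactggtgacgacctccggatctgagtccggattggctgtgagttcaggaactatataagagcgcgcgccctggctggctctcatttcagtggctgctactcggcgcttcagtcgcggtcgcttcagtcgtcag
Ctsd, chr7:142387778-142388077, minus strand: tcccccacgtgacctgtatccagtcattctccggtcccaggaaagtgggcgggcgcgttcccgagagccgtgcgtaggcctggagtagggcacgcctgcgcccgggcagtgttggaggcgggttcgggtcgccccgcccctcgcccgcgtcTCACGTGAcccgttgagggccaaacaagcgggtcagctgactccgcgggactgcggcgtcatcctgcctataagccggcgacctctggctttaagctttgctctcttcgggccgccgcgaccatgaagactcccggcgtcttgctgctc
Distances are counted from the first capital of each motif. In Ctss the motif GAGGAAGT, on the opposite strand, begins 2 bases before the start and runs across it. GAAANNGAAA begins 21 bases before the start of Ctss. In C1qc GAGGAAGT begins 195 bases before the start on the opposite strand, in B2m GAAANNGAAA begins 139 bases before it, and in Ctsd TCACGTGA 99 bases before it. Searched on both strands, GAGGAAGT was in 3.2% of all 32851 promoters and in 3.43% of the 12736 tested genes that matched a promoter by symbol. It was in 111 of 1707 genes that rose (6.5%) and in 35 of 1333 that fell (2.63%). GAAANNGAAA was in 3.44% of all promoters and 3.79% of these tested genes, in 119 of the risen genes (6.97%) and in 38 of the fallen ones (2.85%). TCACGTGA was in 0.974% of all promoters and 1.72% of the tested genes. It was in 1.7% of risen genes, close to the share in all tested genes, in 1.13% of fallen ones and in 3 of the 24 lysosomal hydrolases matched (12.5%). Of the same 24 hydrolases, GAGGAAGT was in 4 (16.7%) and GAAANNGAAA in 1 (4.17%). GAGGAAGT was in 1 of 17 genes of disease-associated microglia (5.88%) and in 0 of 15 MHC genes. These counts describe letters in a window and were not tested.

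Spi1 was itself higher (2.36 ± 0.25, adjusted p = 8.2e-06), as were Irf8 (2.97), Runx1 (2.25) and Cebpa (1.76), which act with it in myeloid cells. Of 23 microglial transcription factors 14 rose and 0 fell.

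Most innate receptors and complement genes rose. Of 21 complement genes 17 rose and 1 fell (median 2.09), of 20 toll-like receptor and inflammasome genes 16 rose and 0 fell (1.64), and of 21 Fc and lectin receptors 17 rose and 0 fell (2.52). C1qc, a chain of the first complement component, was at 6523, 8401, 8933 and 7152 in cKO, against 1105, 991, 1299 and 1084 in cHET (2.79 ± 0.10, adjusted p = 6.4e-10). Siglec1, a sialic acid receptor of macrophages, was at 642, 998, 1150.1 and 477 in cKO, against 10.4, 24.5, 46.1 and 27.2 in cHET (4.98 ± 0.39, adjusted p = 3.4e-07). For both genes the groups did not overlap. Cd55, which protects cells from complement, fell by 0.53, and Tlr3 and Tlr5 were at 0.23 and -0.22 without passing.

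Of 17 chemokines 10 rose and 1 fell. Ccl3, which attracts monocytes, was at 575, 416, 427 and 410.5 in cKO, against 16.9, 25.9, 36.3 and 13.3 in cHET and rose by 4.37 ± 0.31 (adjusted p = 1.1e-07). The chemokine that fell was Cx3cl1 (fractalkine), which neurons make (-0.36). Among cytokines and growth factors 15 of 30 rose and 2 fell. Igf1, which promotes myelination, rose by 3.83, Spp1 (osteopontin) by 2.12 and Tgfb1 by 1.66, whereas Pdgfa, the growth factor of precursors, fell by 0.23. Il33 and Il34, made by glia and neurons, were at -0.04 and -0.20 without passing. Of their receptors 23 of 27 rose and 0 fell, Csf2rb, a shared chain of the GM-CSF receptor, by 3.41 and Osmr, the oncostatin M receptor, by 1.73. Of 19 MHC genes 17 rose and 0 fell (median 1.67). B2m, the small invariant subunit of class I molecules, was at 7876, 12182, 13928 and 8617 in cKO, against 2315, 2328, 3477 and 2633 in cHET. It was highest in cKO 2 and cKO 3 and did not overlap (1.97 ± 0.17, adjusted p = 8.8e-07).

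**Figure D3:**
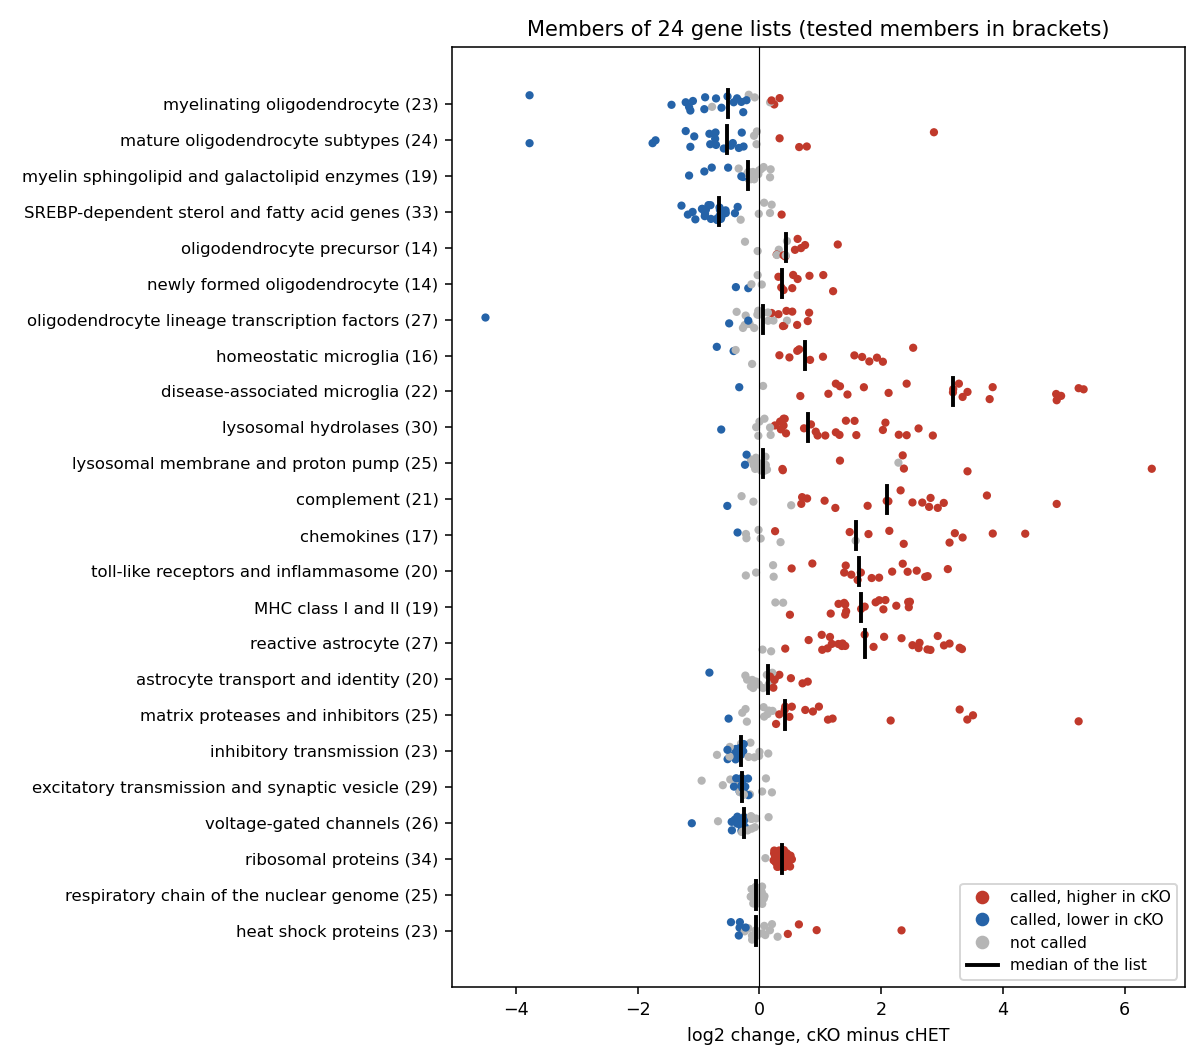
Log2 change, cKO minus cHET (x axis), of every tested member of 24 gene lists (rows; the number tested in brackets); points are genes, red if called higher in cKO, blue if called lower and grey if not called, and black ticks are list medians. The medians of disease-associated microglia, complement and reactive astrocytes lie at 3.18, 2.09 and 1.73, and those of the sterol list and the myelinating oligodendrocyte at -0.66 and -0.53.

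Several interferon-induced genes varied widely among the cKO mice. A rule took the 10 called genes with the widest spread of log2 values within cKO, at a mean of at least 50 there. They were Zbp1, Iigp1, Usp18, Irf7, Ifi209, Rsad2, Ifi27l2a, Ifi211 and Oasl2, all induced by interferon, and Xpo7. Uncalled genes lay outside that rule, and Hoxc12 among them, at 118, 5.2, 0.774 and 126 in cKO, varied more than Zbp1. The mean log2 value of the list of nucleic acid sensing and interferon regulators had an SD of 0.315 over the cKO libraries, less than those of the G2 and M phase (0.461) and MHC (0.328) lists. Ifit3, an antiviral protein, was at 600.3, 1805, 2086 and 537 in cKO, against 262, 233, 457 and 405 in cHET. Oasl2 was at 162, 610.4, 596 and 187 in cKO, against 76.5, 55.3, 85.7 and 78.6 in cHET. Zbp1, a sensor of left-handed nucleic acids, was at 78.2, 242, 215 and 35.0 in cKO, against 12.4, 6.25, 11.7 and 7.75 in cHET. In each of the 3 genes cKO 2 and cKO 3, labelled male, were above cKO 1 and cKO 4, labelled female, and all 4 were above every cHET library. Zbp1 changed by 3.50 ± 0.58 (adjusted p = 4.9e-04), Oasl2 by 2.14 ± 0.42 (adjusted p = 1.9e-03) and Ifit3 by 1.68 ± 0.41 (adjusted p = 7.6e-03). Ifi211 was at 55.2, 155, 148 and 36.4 in cKO and listed at 0 in all 4 cHET libraries.

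Irf7, the amplifier of the interferon response, was at 91.2, 396, 407 and 120.3 in cKO, against 52.5, 52.0, 127 and 47.4 in cHET, so that cKO 1 and cKO 4 overlapped with cHET 3. Its change of 1.68 ± 0.48 (adjusted p = 0.021) no longer passed without cKO 2 (1.36, adjusted p = 0.072), cKO 3 (adjusted p = 0.064), cHET 1 (adjusted p = 0.055), cHET 2 (adjusted p = 0.055) or cHET 4 (adjusted p = 0.051). Usp18 (1.67) no longer passed without cKO 2, cKO 3, cHET 1, cHET 2 or cHET 4 (adjusted p of 0.066 to 0.098), Rsad2 (1.40) without cKO 2, cKO 3, cHET 1 or cHET 2 (0.083 to 0.10), and Iigp1 (1.65) without cKO 2, cKO 3 or any single cHET library (0.068 to 0.13). Of 18 genes of nucleic acid sensing and interferon regulation 15 rose and 0 fell, 11 without cKO 2, 11 without cKO 3, 15 in males alone and 4 in females alone. Their median change was 1.04 in males alone and 0.61 in females alone, in fits that called 3408 and 1180 of all tested genes. Cgas, the DNA sensor, rose by 1.23 and its adaptor Tmem173 (STING) by 1.06.

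The difference between sexes was tested as an interaction over all genes, and it passed for 1 gene (0.00556%), Gm10273, with 1174 at an unadjusted p under 0.05 (6.53%). Without cKO 1 it passed for 8 genes, without cKO 4 for 2, without cHET 1 for 3, without cHET 4 for 14, and without cKO 2, cKO 3, cHET 2 or cHET 3 for 0. Hox genes of the lowest cord segments were also lower in cKO 2 and cKO 3. Hoxc12 was at 118, 5.2, 0.774 and 126 in cKO, against 29.3, 104, 280 and 224 in cHET, while the rostral gene Hoxb4 was at 323, 303, 297 and 304 in cKO, against 305, 277, 286 and 324 in cHET. Hoxd11 and Hoxc10, also caudal, were lowest in cKO 3 and cKO 2 as well (Hoxc10 1408, 1018, 895 and 1758 in cKO, against 1464, 1777, 2285 and 2276 in cHET). The part that labelled sex, the length of cord collected or the animal plays in the interferon values was not tested. Of 14 markers of cord position 6 fell and 0 rose, a count that dropped to 1 without cKO 2, 2 without cHET 3 or cHET 4, and 3 without cKO 1 or cKO 3.

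**Figure D4:**
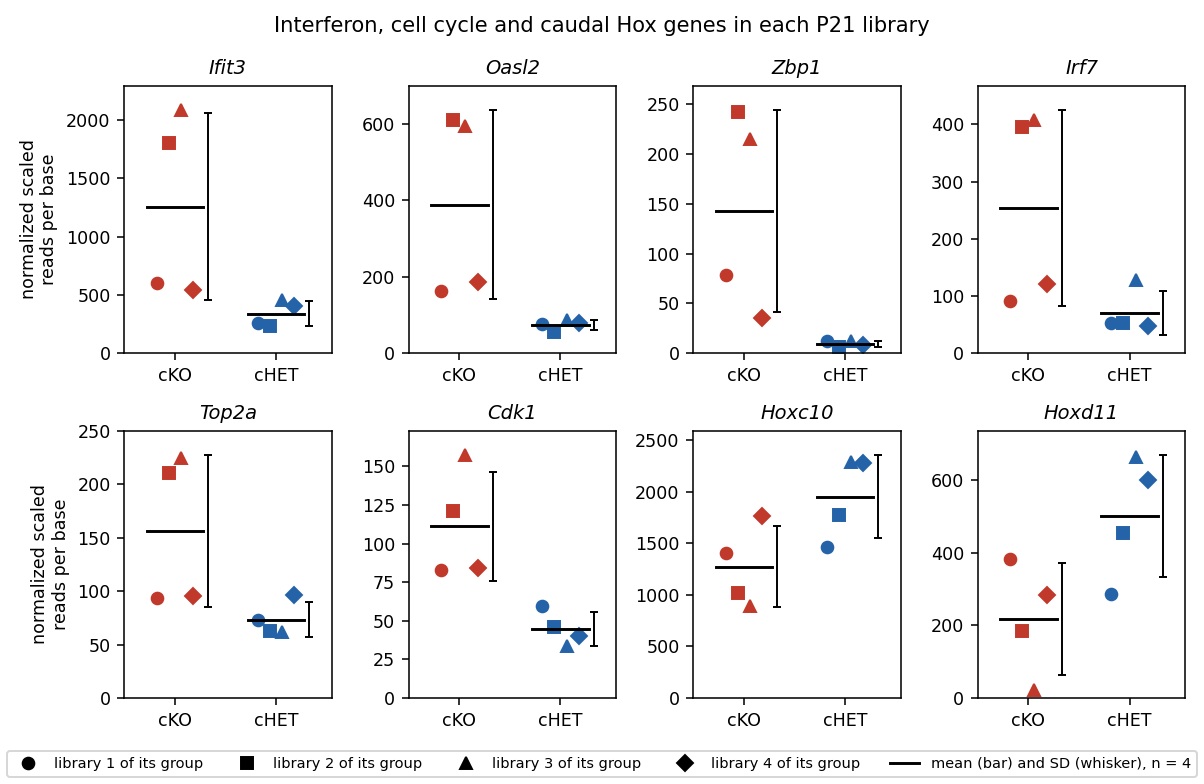
Deposited value (y axis, normalized scaled reads per base) of the interferon genes Ifit3, Oasl2, Zbp1 and Irf7, the cell cycle genes Top2a and Cdk1 and the caudal genes Hoxc10 and Hoxd11 in the 4 cKO and the 4 cHET libraries; symbols mark library 1 to 4 of each group, bars the mean and whiskers the SD. Libraries cKO 2 and cKO 3 are the highest of all for the first 6 genes and the lowest for both Hox genes.

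Astrocyte genes of injury rose together. Of 27 reactive astrocyte genes 25 rose and 0 fell (median 1.73), while of 20 genes of astrocyte identity and transport 8 rose and 1 fell (median 0.14). In the identity list 5 rose without cKO 2 or cHET 1, and 2 fell without cKO 1 or cKO 4. Gfap was at 233189, 268919, 260560.0 and 235146 in cKO, against 102857, 97164, 99225 and 88169 in cHET. Serpina3n, a secreted protease inhibitor, was at 17042, 16316, 13763 and 14506 in cKO, against 1568, 1884, 2438 and 1726 in cHET. In both the groups were far apart (1.36 ± 0.07 and 3.03 ± 0.11, adjusted p = 6.1e-09 and 6.4e-10). Vim (vimentin) rose by 2.63 and Hspb1, a small heat shock protein, by 2.33. The water channel Aqp4 rose by 0.71 ± 0.09, whereas the glutamate transporter Slc1a2, the potassium channel Kcnj10 and glutamine synthetase (Glul) were at 0.12, -0.06 and -0.10 and did not pass. S100b, which oligodendrocytes also express, fell.

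Extracellular matrix genes rose selectively. Of 24 proteoglycan and scar genes 14 rose and 1 fell (median 0.45), of 25 proteases and inhibitors 16 rose and 1 fell (0.42), and of 25 collagens 11 rose and 3 fell. Fmod (fibromodulin), a small proteoglycan that binds collagen, was at 2619, 2955, 2943 and 1674 in cKO, against 206, 159, 226 and 229 in cHET. Ccn5, a secreted protein of the CCN family, was at 1039.5, 1558, 956 and 569 in cKO, against 5.24, 2.29, 34.1 and 9.79 in cHET. Ccn5 had the highest log2 change among genes with a mean of at least 200 in one group (6.80 ± 0.59, adjusted p = 9.7e-07), and Fmod changed by 3.61 ± 0.17 (adjusted p = 3.8e-09). Col5a3, a chain of type V collagen, was at 4049, 3312, 2680.4 and 3654 in cKO, against 813, 1026, 998 and 733 in cHET. It did not overlap (1.94 ± 0.14, adjusted p = 1.4e-07), while Col6a2 and Col3a1 fell (-0.92 and -0.67). The Col3a1 call was lost on leaving out any single library other than cKO 4 or cHET 2 (adjusted p up to 0.098), and the count of fallen collagens was 1 without cKO 2, cKO 3, cHET 1 or cHET 3. Fn1 (fibronectin) rose by 1.40 and Timp1, an inhibitor of matrix metalloproteinases, by 3.29; Mmp9 was at -0.23 and did not pass. Of 14 CCN and YAP target genes 6 rose and 0 fell, and of 27 Wnt, Notch and BMP targets 3 and 1.

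Neuronal genes were lower by small amounts. Of 15 pan-neuronal markers 8 fell, of 23 genes of inhibitory transmission 13, of 29 of excitatory transmission and the synaptic vesicle 17, and of 26 voltage-gated channels 13; none of these lists had a member that rose. Their medians were -0.25 for neuronal markers, -0.31, -0.29 and -0.26. Gad1, which makes GABA, was at 2750.0, 2672, 2764 and 2531 in cKO, against 3613, 3461, 3466 and 3489 in cHET. The 2 groups were tight and did not overlap (-0.39 ± 0.05, adjusted p = 9.9e-05). Syt1, the calcium sensor of vesicle release, was at 5485, 4863, 4867 and 4692 in cKO, against 8221, 6301, 6037 and 6232 in cHET (-0.42 ± 0.08, adjusted p = 2.3e-03). Its cHET 1 value was the highest, and without cHET 1 the change was -0.32 (adjusted p = 1.8e-03). Snap25, of the vesicle fusion complex, was at 61067, 56960.1, 63084 and 68096 in cKO, against 71374, 72236, 74622 and 74302 in cHET (-0.23 ± 0.06, adjusted p = 0.011). The summed value of the 15 neuronal markers was 334188 to 388988 in cKO and 405475 to 432969 in cHET libraries.

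These counts moved with the libraries that stood apart. Without cHET 1 the neuronal, inhibitory, excitatory and channel lists had 8, 12, 15 and 10 members down. Without cKO 4 and cHET 4 they had 14, 16, 19 and 14; the neuronal list also had 12 without cKO 4 alone. In females alone they had 0, 1, 0 and 2, and in males alone 13, 16, 19 and 16. Over all 17989 tested genes those fits called 1180 and 3408, and cHET 1, cKO 4 and cHET 4 are labelled female. The medians of the 4 lists were -0.20, -0.31, -0.28 and -0.22 in females alone. In males alone they were -0.31, -0.35, -0.27 and -0.28. The channel list had 9 without cHET 2 or cHET 3. Hcn2, a pacemaker channel, fell more than the rest of its list (-1.11 ± 0.10, limma adjusted p = 9.7e-07). Its values were 7361, 9285, 10775 and 9344 in cKO, against 20154, 19350.0, 21768 and 17704 in cHET. Whole tissue does not show which cells this fall came from. Of 9 motor neuron genes 0 passed in limma; the vesicular acetylcholine transporter Slc18a3 was at -0.15 (95% interval -0.46 to 0.17) and the motor neuron factor Mnx1 at -0.07 (-0.40 to 0.27). Calca, a peptide of motor and sensory neurons, was at -0.31. Among genes of axon injury, Atf3 was at 587, 516, 597 and 422 in cKO, against 41.7, 44.5, 50.1 and 65.7 in cHET (3.39 ± 0.22, adjusted p = 5.0e-08), but Gap43, Sox11, Ecel1 and Gal, others of that response, were at -0.11, -0.01, -0.14 and -0.19 and did not pass.

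**Figure D5:**
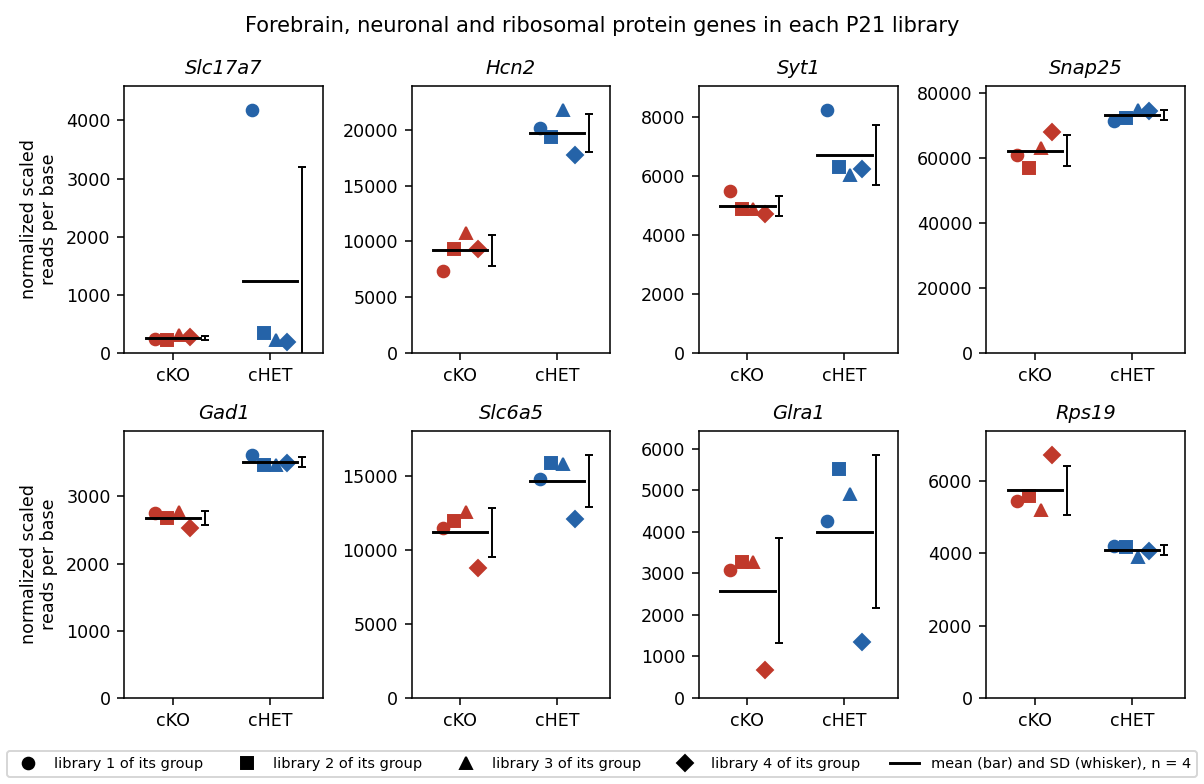
Deposited value (y axis, normalized scaled reads per base) of 8 genes in the 4 cKO and the 4 cHET libraries. They are the forebrain gene Slc17a7, the channel gene Hcn2, the neuronal genes Syt1, Snap25, Gad1, Slc6a5 and Glra1 and the ribosomal gene Rps19. Symbols mark library 1 to 4 of each group, bars the mean and whiskers the SD. Library cHET 1 is far above the rest for Slc17a7, libraries cKO 4 and cHET 4 are the lowest of their groups for Glra1 and Slc6a5, and Hcn2 separates the groups by a large step and Gad1 by a small one; whiskers that would pass below 0 end at the axis.

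TDP-43 binds long introns of neuronal genes and regulates other RNA-binding proteins. Of 19 long-intron targets known from mouse brain 8 fell and 1 rose (median -0.24). The pan-neuronal, inhibitory, excitatory and channel lists had medians of -0.25, -0.31, -0.29 and -0.26, so a fall of this size was not particular to the targets. The part that binding plays was not tested. Sort1, the sorting receptor sortilin, was at 11890.0, 12114, 13714 and 10726 in cKO, against 18236, 18346, 17305 and 15977 in cHET, and Ptprd, a receptor phosphatase, at 7990.1, 7838, 7957 and 6439 in cKO, against 11629.6, 12050.5, 10591 and 9489.6 in cHET. Both were apart in all libraries (-0.53 ± 0.07 and -0.53 ± 0.08, adjusted p = 1.1e-04 and 3.2e-04). The count of falls was 3 without cHET 2 or cHET 3, 4 without cKO 4 and 5 without cHET 1. Of 28 RNA-binding proteins 1 rose and 2 fell, 1 of them Tardbp itself and the other Elavl3 (-0.32), a neuronal protein. Ptbp1, a splicing repressor of non-neuronal cells, was at 719, 836, 821 and 755 in cKO, against 516, 555, 553 and 495 in cHET (0.56 ± 0.07, adjusted p = 4.2e-05). Values per gene do not show splicing, so cryptic exons were not examined.

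Cell cycle genes rose in some mice more than in others. Of 22 genes of G2 and M phase 11 rose and 0 fell (median 0.69), and of 20 S phase genes 5 and 0. The mean log2 value of the G2 and M list was 6.27, 6.87, 6.89 and 5.95 in cKO, against 5.95, 5.73, 5.54 and 5.87 in cHET. It was highest in cKO 2 and cKO 3, and that of cKO 4 lay beside cHET 1. Cdk1, the kinase that starts mitosis, was at 83.1, 121, 157 and 84.1 in cKO, against 59.6, 45.9, 33.7 and 40.5 in cHET (1.28 ± 0.26, adjusted p = 2.5e-03). The G2 and M count was 6 without cKO 2, cKO 3 or cHET 3, 0 in females alone and 16 in males alone, and the S phase count was 1 without any 1 of cKO 2, cKO 3, cHET 2 and cHET 3. Cdkn1c, a cell cycle inhibitor, was at 267, 173, 168 and 251 in cKO, against 1422, 1291, 1063 and 1419.5 in cHET. It fell by 2.62 ± 0.15 without overlap (adjusted p = 2.0e-08).

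Of 23 cell death genes 10 rose and 0 fell, including Casp8 (1.85), the initiator of the extrinsic pathway, and Ripk1 (0.69), while Mlkl, the effector of necroptosis, was at 0.55 and did not pass (adjusted p = 0.46). Of 21 cell cycle inhibitors and p53 targets 5 rose and 1 fell, with Fas up by 1.11 and Bbc3 (Puma) by 0.72. The rises numbered 3 without cKO 2 or cHET 2 and, in females alone, 0. The fit of females alone called 1180 of all tested genes, and the median of this list was 0.11 in it. Stress responses of the endoplasmic reticulum were small outside Atf3. In that list 5 of 22 rose and 1 fell, and Ddit3 (Chop) and the chaperone Hspa5 (BiP) were at 0.06 and -0.02, with 95% intervals of -0.27 to 0.39 and -0.45 to 0.41. Among heat shock proteins 4 of 23 rose, led by Hspb1, and 6 fell, among them Hsp90aa1 (-0.32). Without cKO 1, cKO 2, cHET 1 or cHET 3 the falls numbered 3. Of 17 antioxidant genes 8 rose and 1 fell (median 0.32). Prdx6 and the metallothioneins Mt1 and Mt2 rose by 1.04, 1.05 and 1.06, while Gclm and Srxn1, classical targets of NRF2, were at -0.11 and -0.12 and did not pass. Hmox1, heme oxygenase of phagocytes, rose by 1.54, and Gpx4, which prevents ferroptosis, was at 0.03 (-0.13 to 0.19).

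Ribosomal protein genes rose, and nuclear genes of the respiratory chain gave no calls. Of 34 ribosomal protein genes 30 rose and 0 fell (median 0.37), and Rps19, of the small subunit, was at 5448, 5567, 5191 and 6701 in cKO, against 4189, 4177, 3885 and 4067 in cHET (0.48 ± 0.07, adjusted p = 1.8e-04). In females alone 2 passed and in males alone 29, in fits that called 1180 and 3408 of all tested genes. The median change of the 34 ribosomal protein genes was 0.33 in females alone and 0.41 in males alone. Several of these genes have near-identical pseudogenes that can share reads, so single members are uncertain. Of 25 nuclear genes of the respiratory chain 0 passed in limma, and their changes ran from -0.14 to 0.08. Of 21 proteasome genes 7 rose, mainly the immunoproteasome subunit Psmb8 (2.61) and the peptide transporter Tap1 (2.40), whereas constitutive subunits such as Psmd1 and Psma1 were at 0.00 and -0.00. In glycolysis 6 of 26 rose and 3 fell: Hk3 and Hk2, hexokinases of myeloid cells and of injury, rose by 2.64 and 1.84, and Eno2, the neuronal enolase, fell by 0.25. Gapdh and Pkm were at -0.02 and 0.01.

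Markers of rarer cell types, and of cells from outside the cord, were counted beside a share of 22.6% called over all genes. Of 8 tested T and NK cell markers 1 rose, Cd5. It was at 12.9, 24.9, 24.8 and 14.6 in cKO, against 0, 0, 1.07 and 1.11 in cHET. In the groups compared only its cKO values reached the minimum of the filter, so its entry and its rise are not independent. Cd3e and Cd8a were at 0.15 and -0.22 and did not pass. The summed value over 17 such genes was 195 to 238 in cKO and 152 to 214 in cHET libraries. Neutrophil and monocyte markers gave 0 of 8 in limma, with sums of 132 to 187 in cKO and 115 to 181 in cHET. Among 10 B and plasma cell markers Cd79b and Sdc1 rose (1.92 and 0.83). The summed value over all 11 of that list went the other way, at 1012, 2123, 2153 and 2119 in cKO, against 2231 to 2398 in cHET libraries. Only 1 of the 10 tested members had a mean of at least 50 (-0.47, not called), so the sum mainly follows that gene. Among perivascular macrophage markers 2 of 8 rose, Ms4a7 (2.92) and Stab1 (1.21), while Mrc1, Cd163 and Lyve1 were at 0.14, 0.18 and 0.07. Of 15 endothelial markers 1 rose and 3 fell, and the falls of Pecam1 and Tie1 (-0.28 and -0.46) were lost without cKO 1, cKO 4, cHET 1, cHET 2 or cHET 3, and that of Pecam1 also without cKO 3 (adjusted p up to 0.13 for Pecam1 and 0.12 for Tie1). Schwann cells make the myelin of peripheral nerve. Of 11 of their markers 4 rose and 1 fell, with a median of -0.07. The risen ones were Egr2, Ncmap, Gldn and Cdh19, by 3.27, 2.24, 1.57 and 0.50, and Pmp22 fell by 0.60. The falls numbered 2 without cKO 3 or cHET 4. Of 8 erythrocyte markers, a sign of blood left in the tissue, 0 rose and 2 fell (median -0.49). Bpgm, an enzyme of red cells that other tissues also express, was at -0.28, and the globin genes Hba-a1 and Hbb-bs were at -0.49 and -0.52 and did not pass. The list summed to 12532 to 40191 in cKO and 23656 to 56117 in cHET libraries.

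Genes near the floxed locus were counted as well. Within 1 Mb of Tardbp 42 genes were tested and 26.2% passed, and within 5 Mb 105 and 21.9%, beside 22.6% over all genes. Within 5 Mb of Cnp these were 241 genes and 24.5%.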

How the data were processed

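RNA-seq of 8 P21 cords was compared, with 4 P21 control libraries in the fit. The deposited signal is, per the file headers, the authors' scaled reads per base, normalized, 1 value a gene, used without further scaling; per the labels it comes from Trizol RNA and the TruSeq kit, and the submitters' processing notes name kallisto 0.43.0, sleuth 0.28.1 and GRCm38. What each tool did and the annotation release were not given in the sources used here. The authors' table for this comparison, as deposited, holds effects in natural log of value + 0.5, divided here by the natural log of 2, and a p-value and q-value. Of its 18101 genes 16483 had the same effect in the per-library values (within 1e-06), 901 another and 717 were absent from them; 759 tested genes, among them Apoc2, Atp6v0d2, Cd5 and Ifi211, were absent from that table.

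Values were taken to log2(value + 0.5), genes that reached 5 in at least 4 libraries were kept, and the 3 genotypes were fitted together with limma-trend (limma 3.58.1, R 4.3.3). Every adjusted p of a gene is from this 2-sided moderated test after Benjamini and Hochberg, with a threshold of 0.05. Sex by genotype was tested in a fit of 6 groups. Cd5, Apoc2, Atp6v0d2 and Ifi211 were under 5 in every cHET library. Of the groups compared, only cKO counted toward their passing the filter, so their entry and their rise are not independent. Names and positions come from GENCODE M21 (24912 of 25127 identifiers), promoters from RefSeq on GRCm38.p6. The fit was tested on simulated data. The numbers of libraries were given in accession order and pair no samples.

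The genes, the gene lists and the comparison were chosen with earlier results of these data known, so lists are described by counts and medians and were not tested. A rule named 268 genes, of which 258 show no overlap between the groups. It took Tardbp, Cnp, the largest changes and the sex by genotype call. For every list with at least 2 calls it took the lowest p-values, up to 4 genes. Among called genes with a mean of at least 50 in cKO it took the widest spread there. The largest changes were taken only from genes without overlap, and low p-values favour such genes, so the 258 are no separate result. Beyond the rule, 107 genes were named after their values were seen, some of them cell type markers. Alternatives were a pseudocount of 5, no filter, median-of-ratios or quantile scaling, a minimum mean of 50, sex as a covariate, fits of 1 sex or of the 2 genotypes alone, the authors' test and removal of single libraries; removal of cKO 4, cHET 4 and cHET 1 in sets and restriction to genes equal in both tables were added after the data were seen.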

Additional observations from a re-analysis of the deposited data

Results flagged for a closer look

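In 23 of 258 groups of 4 libraries (73 lists and 56 genes, in cKO and in cHET) 1 library lay far from the other 3 by Dixon's ratio, where chance gives about 1 group in 20. Lists are given by the mean log2 value of their members. Library cKO 4 was low for inhibitory transmission (10.7, others 11.0 to 11.0) and voltage-gated channels (11.3, others 11.5 to 11.5), high for NRF2 antioxidant genes (11.3, others 11.1 to 11.1) and low for Gpnmb (value 1720.3, others 3055 to 3192). Library cHET 1 was high for forebrain markers (7.47, others 5.16 to 5.38) and Dnah8 (325, others 261 to 270.1) and low for Fc and lectin receptors (5.42, others 5.71 to 5.74).

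Library cHET 3 was high for reactive astrocyte genes (7.82, others 7.52 to 7.55), sterol export (9.47, others 9.22 to 9.25), Ctsd (18910, others 15900 to 16320), Gpnmb (147, others 47.3 to 55.9) and Irf7 (127, others 47.4 to 52.5), and low for Mbp (1535360, others 1716400 to 1739640) and Mob3b (1074, others 1366 to 1412). Library cHET 4 was high for ferroptosis and iron handling (10.2, others 10.2 to 10.2) and low for Mt1 (16818, others 18645 to 18824) and Ly9 (1.14, others 15.1 to 22.7), and cHET 2 was low for proteoglycans (9.81, others 9.88 to 9.90).

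Among the other cKO libraries, cKO 1 was low for ferroptosis and iron handling (10.3, others 10.4 to 10.4), the proteasome (9.87, others 10.1 to 10.1) and Tubb4a (46608, others 54568 to 55319), and cKO 3 was low for RNA-binding proteins (11.0, others 11.2 to 11.2) and high for Serpinb1a (101, others 73.3 to 75.8).

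Gm10273, an unnamed coding gene, was the single gene whose difference between cKO and cHET differed between the sexes, by -10.88 (males minus females, log2; limma adjusted p = 0.036). Its values were 7.31, 0, 0 and 48.3 in cKO, against 0, 37.1, 14.9 and 0 in cHET, so that it was found in female cKO and male cHET cords, and it was lost in 9 alternatives that are given further on.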

How the results depend on the processing

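Calls for cKO against cHET numbered 3210 to 4346 in every alternative but 1, against 4059, and leaving out each library in turn gave 3210 to 4025 (1833 to 2176 up, 1360 to 1862 down). The exception was the fit of females alone, with 1180 calls, 823 up and 357 down, against 3408 in males alone. The interaction of sex and genotype gave 0 genes, against 1, with a pseudocount of 5, no filter, a mean of at least 50, quantile normalization or only cKO and cHET in the fit, and 0 to 14 without single libraries (763 to 1680 at an unadjusted p under 0.05). Of 375 named genes 228 kept direction and side of the threshold throughout, 127 lost the call at least once, mostly in females alone (118), and 2 reversed; 34 genes that were uncalled with every library changed sign at least once without being called. Gm10273, at -0.15 and uncalled, was at 5.29 in females alone and at 0.57 to 0.99 without cKO 2, cKO 3, cHET 2 or cHET 3. Xpo7 was at -0.10 in the authors' test, where its values differ; the cause of these changes was not tested. No paired analysis was possible because the labels give each library its own mouse and no number shared between groups. The values carry no read numbers, so precision at low levels is unknown, and the median SE was 0.425 in the lowest of 4 equal classes of genes by mean value against 0.069 in the highest.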

Other observations

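Gene groups outside the account above moved less evenly. Of 20 phagocytic and scavenger receptors 12 rose and 1 fell. Msr1, a scavenger receptor for modified lipoproteins, rose by 3.71 ± 0.68, and Cd14, a coreceptor for lipopolysaccharide, by 2.76 ± 0.14. The one that fell was Megf10, an engulfment receptor of astrocytes (-0.81 ± 0.09, limma adjusted p = 1.3e-05), and the bridging protein Mfge8 was at -0.17 and did not pass. Chemokine receptors gave 5 risen and 0 fallen of 10; Ccr2, of infiltrating monocytes, was at 0.85 without passing (adjusted p = 0.16). Of 23 lipid droplet and fatty acid genes 7 rose and 2 fell. Plin4 and Plin2, which coat lipid droplets, rose by 2.45 and 1.68, whereas the oxidation enzymes Acadm and Hadha were at 0.07 and 0.19 and did not pass. Of 25 integrin and adhesion genes 11 rose and 2 fell, with Itgax, a subunit of activated microglia, at 471, 622, 461 and 210.4 in cKO, against 9.58, 15.6, 17.2 and 12.6 in cHET, and Itgb3 at -1.50.

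Of 12 sonic hedgehog genes 3 rose and 2 fell, with Hhip, which binds the ligand, at 1062, 1203, 1457 and 1118 in cKO, against 1864, 1870.2, 1767 and 2039 in cHET (-0.65 ± 0.09, limma adjusted p = 8.9e-05), while the pathway's readout Gli1 was at -0.02 and did not pass. Of 20 immediate early genes 4 rose and 0 fell, and Fos and Egr1 were at 0.35 and 0.11 without passing. Of 13 mural cell markers 4 rose and 2 fell, with Tagln, of contractile cells, up by 1.24 and the pericyte gene Rgs5 at -0.50. Of 14 ependymal markers 2 rose, and Foxj1, which drives the building of motile cilia, was at 0.12 without passing. Fatty acid binding protein Fabp7, of immature glia, rose by 0.86. By gene class, 23.9% of 16452 protein-coding genes and 6.35% of 960 processed pseudogenes passed.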
